A study of Mus musculus with 6 samples.

Results

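Respiratory complex I is described here through the 44 protein-coding mouse genes whose symbols name its subunits: 37 nuclear genes (Ndufa, Ndufb, Ndufc, Ndufs or Ndufv followed by a number) and the 7 mt-Nd genes of the mitochondrial genome. They were chosen by symbol from the 49315 genes counted, without the Ndufaf assembly factors and without Ndufab1, whose symbol falls outside the rule. Of the 44, 43 passed the filter on low counts. The exception was Ndufa4l2, a paralogue of Ndufa4, with 1, 7, 3, 18, 0 and 6 counts in the 6 libraries, in the order in which they are introduced next. Ndufa4 bears a complex I name but is now assigned to complex IV; its values are kept in the counts.

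RNA was sequenced from CBir1 TCR transgenic CD4+ T cells, which recognise a flagellin of commensal bacteria, with 1 library for each of 6 conditions. For 5 of them, CD4+CD44- cells carrying CD45.1 were transferred into C57BL/6 mice carrying CD45.2 on day 0, then given CBir1 flagellin (50 ug) together with CT (1 ug) on days 1 and 7, and challenged with 3 ug MEP1 on day 56. The No treatment mice received nothing else. The other 4 groups also received 3 ug MEP1 on days 28 and 35, each time with 5 days of the vehicle CMC (MEP1+CMC), metformin in CMC (MEP1+Metformin), rapamycin in CMC (MEP1+Rapamycin) or both drugs in CMC (MEP1+Metformin+Rapamycin). Donor cells were sorted from spleen on day 63. The sixth library is the labelled CBir1 TCR transgenic naive CD4 control (naive control below), also from spleen, for which the labels give no transfer step of its own. How many mice stand behind a library is not given. The column header of the No treatment library calls it unchallenged, against its protocol; its label was followed.

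Complex I (NADH:ubiquinone oxidoreductase) takes electrons from NADH, passes them along flavin and iron-sulphur groups to ubiquinone and pumps protons across the inner mitochondrial membrane. It is built from both genomes: the matrix arm (the NADH module and the quinone module) is wholly nuclear, while the proton-pumping membrane arm holds the mt-Nd proteins among nuclear ones. Metformin is known as an inhibitor of complex I, and rapamycin as an inhibitor of mTORC1, a kinase complex that controls T cell growth and metabolism. Memory and naive T cells are known to rely on oxidative phosphorylation more than newly activated effector cells do.

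The libraries held between 26139000 and 60622310 counts. Levels are given as CPM after TMM scaling (counts per 1e6 of the library's effective size, TMM being the trimmed mean of M-values over 12928 genes with at least 2 CPM and 10 counts in a library), and per kilobase of exon where genes are compared. With 1 library per condition, a ratio of 2 libraries has no replicate check; the 95% interval given in brackets is an exact binomial (Clopper-Pearson) interval that covers counting error only. Cd3e was present at 816 to 1469 TMM CPM and Cd4 at 552 to 1076 in all 6 libraries. Summed macrophage and monocyte markers (10 of 10 measured) were 3497 TMM CPM in No treatment, between 455 and 732 in the 4 MEP1-treated libraries and 74.1 in the naive control. Summed erythroid markers (7 of 7 measured) were 1616 in No treatment, 353 in MEP1+CMC, 379 in the naive control and 51.9 to 100.2 in the other 3, and Slc4a1 was at 0 in some library. Xist was at 257 TMM CPM in MEP1+CMC and at 0.218 to 0.532 in the other 3 MEP1-treated libraries, with 23.0 in No treatment and 42.8 in the naive control. Ribosomal-RNA-like loci took 15.4% of the naive control's counts and 1.00 to 3.13% of the others. The part of these differences in the results below was not tested.

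Sequences are shown first for mt-Nd4l and mt-Nd3, since these short genes had the ratios furthest from 0 in MEP1+Metformin against MEP1+CMC, though not in the other metformin contrast, and have almost letter-perfect copies in the nuclear genome. In the GENCODE M21 transcripts of GRCm38, 98.8% of the 50-base windows of mt-Nd4l and 98.0% of those of mt-Nd3 also occur in another annotated gene, against 62.2% for mt-Nd4, 8.19% for mt-Nd2, 7.61% for mt-Nd5 and 0% for mt-Nd1 and mt-Nd6. The whole of mt-Nd4l is given 5′ to 3′ (MT:9877-10173, plus strand), with the last 7 bases, which are also the first 7 of mt-Nd4, in capitals.
mt-Nd4l: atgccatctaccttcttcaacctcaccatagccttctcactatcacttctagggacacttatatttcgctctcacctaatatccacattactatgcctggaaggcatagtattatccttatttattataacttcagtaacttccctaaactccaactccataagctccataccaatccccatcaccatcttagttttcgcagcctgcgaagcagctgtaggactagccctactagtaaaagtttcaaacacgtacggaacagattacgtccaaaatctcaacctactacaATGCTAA
Its copy is the pseudogene Gm10222 (chr1:24612407-24612700, minus strand), whose 294 bases are identical to the first 294 of mt-Nd4l. The neighbouring pseudogene Gm28439 (chr1:24611535-24612410, minus strand) is identical over all of its 876 bases to the first 876 of the 1378 bases of mt-Nd4.

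The copy of mt-Nd3 is the pseudogene Gm28438 (chr1:24612775-24613119, minus strand), which shares 344 of 345 aligned bases with it. The 1 difference is T3C, with positions counted from 1 at the first base of mt-Nd3 and its own base written first. The first 40 bases of both are shown, with that base in capitals (MT:9459-9498, plus strand, and chr1:24613080-24613119, minus strand).
mt-Nd3: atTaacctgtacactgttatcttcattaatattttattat
Gm28438: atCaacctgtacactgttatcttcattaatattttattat
How the authors' counting treated reads that fit both places is not given in the sources used here. Gm28438 held 552, 317, 151, 198, 171 and 213 counts in No treatment, the vehicle, metformin, rapamycin and both-drug libraries and the naive control, and Gm10222 held 674, 476, 286, 322, 349 and 311. Gm10222 therefore had more counts than mt-Nd4l had in every library, and the values of mt-Nd3 and mt-Nd4l below are uncertain for this reason. Mt-Nd6 overlaps mt-Nd5 by 14 bases on the opposite strand, and the strand setting of the counting is not given either.

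The 7 mitochondrial members lay at very different levels per length. In what follows 6 values stand in the order No treatment, vehicle (MEP1+CMC), metformin (MEP1+Metformin), rapamycin (MEP1+Rapamycin), both drugs (MEP1+Metformin+Rapamycin) and naive control. Mt-Nd1, which shapes the channel through which ubiquinone enters, was at 3012, 2360, 1501, 2179, 1298 and 3713 TMM CPM per kb. It stood highest of the 7 in each library. Mt-Nd2, one of the antiporter-like proton-pumping subunits, was at 837, 642, 393, 620, 315 and 1013 TMM CPM per kb. Mt-Nd4, another antiporter-like subunit, was at 710, 552, 370, 622, 377 and 869 TMM CPM per kb. Mt-Nd5, the antiporter-like subunit at the far end of the membrane arm, was at 579, 474, 377, 432, 346 and 543 TMM CPM per kb. In these 4 genes both metformin-treated libraries were the lowest. Mt-Nd6, the only protein-coding gene on the other strand of the mitochondrial genome, was at 508, 418, 294, 497, 244 and 457 TMM CPM per kb. Mt-Nd3, whose loop near the quinone site moves between active and resting forms of the enzyme, was at 133, 85.5, 38.3, 57.7, 34.0 and 141 TMM CPM per kb. Mt-Nd4l, a small membrane subunit, was at 21.0, 20.7, 7.89, 9.05, 9.57 and 29.7 TMM CPM per kb. These last 2, whose sequences have the nuclear copies, were the lowest of the 7 in all 6 libraries.

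**Figure D1:**
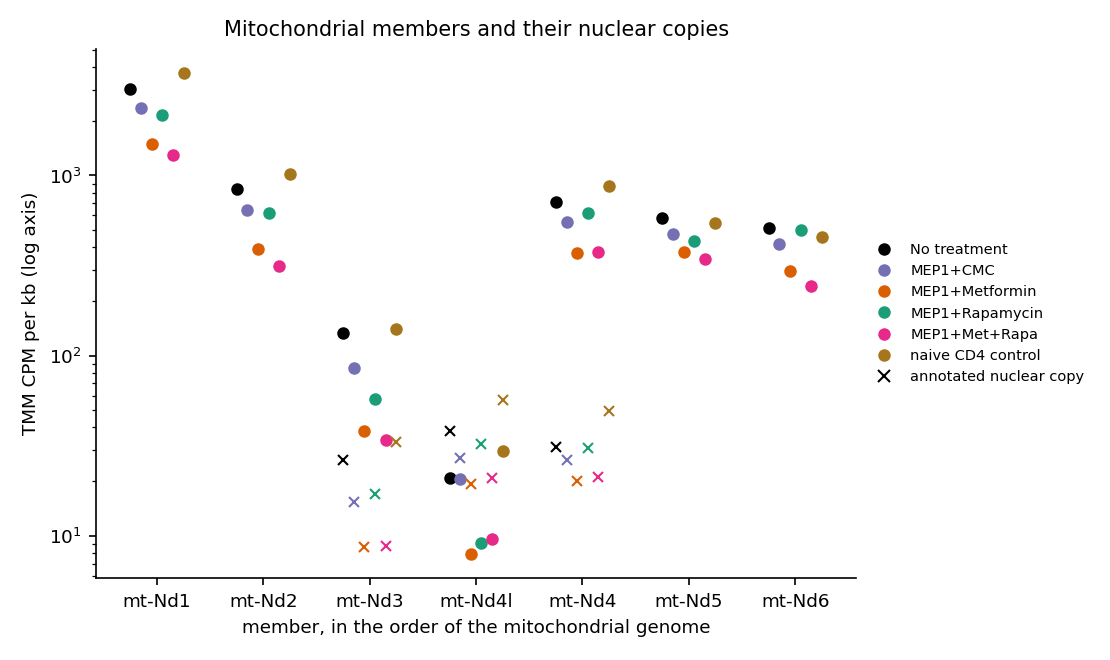
Levels of the 7 mitochondrial members in each library (dots, TMM CPM per kb of exon on a log axis) and of the annotated nuclear copies of mt-Nd3, mt-Nd4l and mt-Nd4 (crosses), 1 library per condition. Mt-Nd1 stands highest, the copy of mt-Nd4l lies above mt-Nd4l itself, and MEP1+Metformin and MEP1+Metformin+Rapamycin are the lowest dots of mt-Nd1, mt-Nd2, mt-Nd3, mt-Nd4, mt-Nd5 and mt-Nd6.

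Summed over members, both genomes gave their lowest totals in the metformin-treated libraries, and on the TMM scale their highest in the naive control. As shares of library totals No treatment was highest instead, with 0.468% against 0.430% in the naive control for the nuclear members and 0.608% against 0.508% for the mitochondrial ones. The 37 nuclear members together made 4692, 3961, 2954, 4406, 3181 and 6005 TMM CPM. The 7 mitochondrial members together made 6100, 4803, 3209, 4653, 2860 and 7089 TMM CPM. The ratio of the mitochondrial to the nuclear sum was 1.30, 1.21, 1.09, 1.06, 0.899 and 1.18, so that only MEP1+Metformin+Rapamycin had a smaller mitochondrial than nuclear sum. Of the 36 nuclear members past the filter, 30 were highest in the naive control, 3 in No treatment and 3 in MEP1+Rapamycin on the TMM scale, against 9, 11 and 14 with library totals. MEP1+Metformin was the lowest library for 33 of the 36 (28 with library totals), while Ndufs1 was lowest in MEP1+Rapamycin and Ndufs4 in MEP1+Metformin+Rapamycin. Of the 7 mitochondrial members, 5 were lowest in MEP1+Metformin+Rapamycin and 2 in MEP1+Metformin. In bulk samples such as these, fewer cells of a type and less RNA per cell cannot be told apart.

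**Figure D2:**
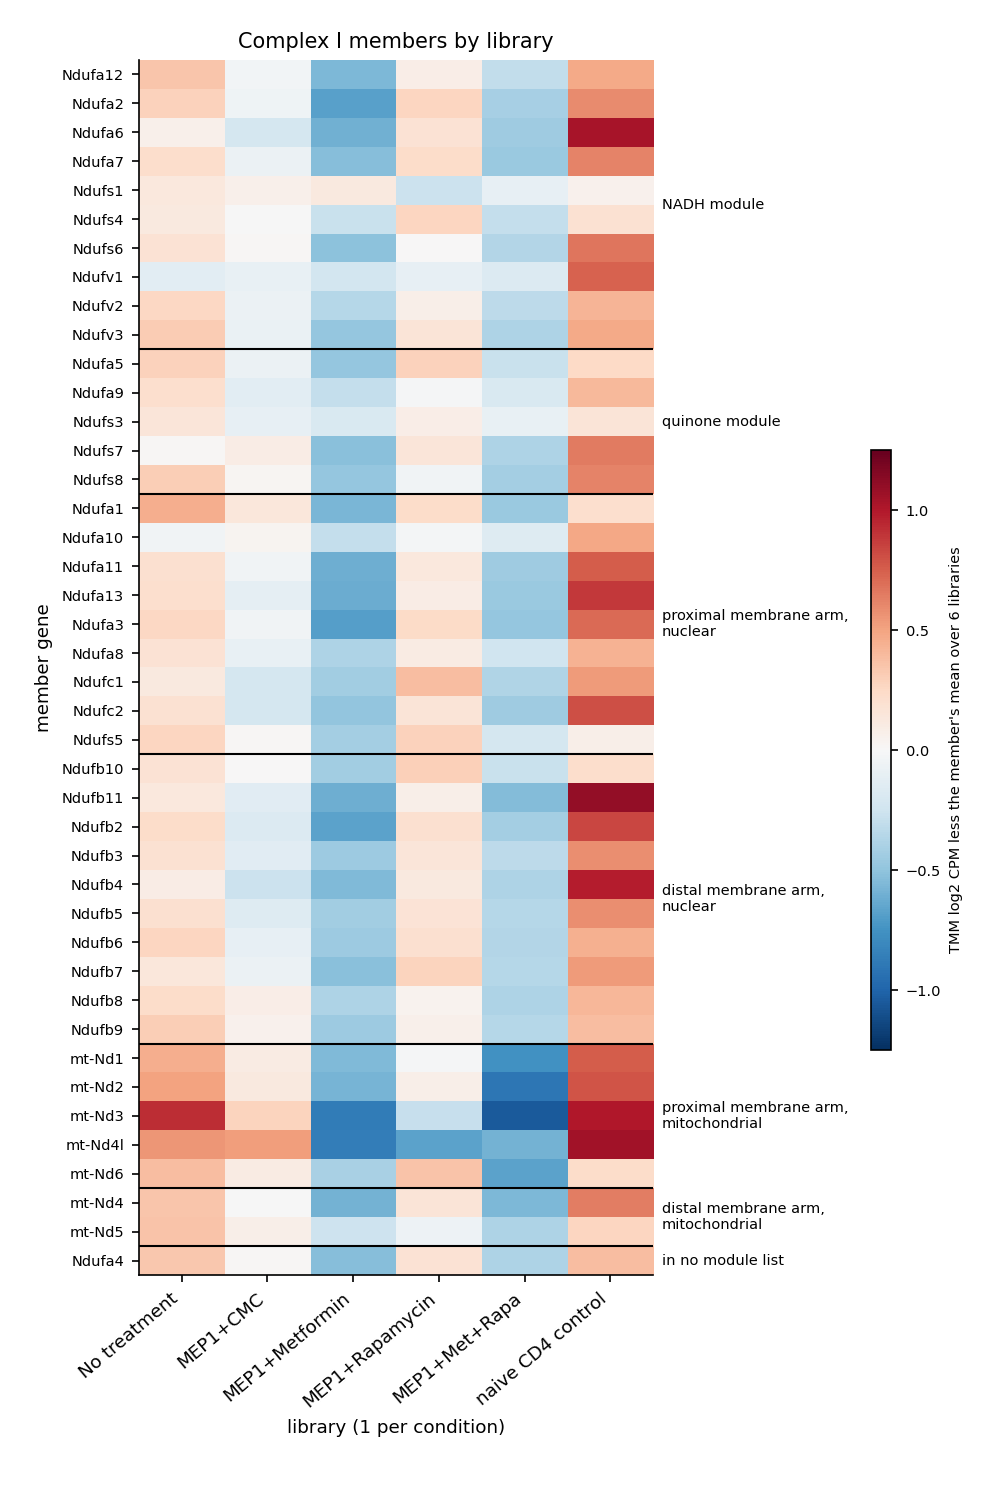
Heat map of 42 members past the filter (rows, by position in the enzyme) in 6 libraries (columns); the colour is the TMM log2 CPM less the member's mean over the 6 libraries. On this scale the naive control is the highest library and MEP1+Metformin the lowest for most nuclear rows, while Ndufs1 is lowest in MEP1+Rapamycin.

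Metformin was added to MEP1 in a pair of contrasts that share no library: MEP1+Metformin against MEP1+CMC, and MEP1+Metformin+Rapamycin against MEP1+Rapamycin. In the first, 35 of 36 nuclear and 7 of 7 mitochondrial members had a log2 ratio below 0, against 51.0% of all genes tested. Their medians were -0.43 and -0.65, beside -0.0088 over all genes. In the second, 34 of 36 nuclear and 6 of 7 mitochondrial members were below 0, against 52.6% of all genes. The medians were -0.54 and -0.75, beside -0.03 over all genes. A size rule asked for a ratio of at least 2-fold with an interval that leaves out 0. In the first contrast 2 of 43 members passed it, mt-Nd3 and mt-Nd4l, against 5.88% of all genes. In the second 1 passed, mt-Nd6, against 6.99% of all genes. Most members thus shared a direction, while few reached 2-fold.

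Among mitochondrial members, mt-Nd1 gave a log2 ratio of -0.65 [-0.67, -0.64] in the first contrast and -0.75 [-0.76, -0.73] in the second. Mt-Nd2 gave -0.71 [-0.73, -0.69] and -0.98 [-1.01, -0.95]. Mt-Nd4 gave -0.58 [-0.60, -0.56] and -0.72 [-0.75, -0.70]. These 3 were lower with metformin in both contrasts, by more than their counting error, with a trend on exon length left in. Mt-Nd5 moved least of the well-counted genes, with -0.33 [-0.35, -0.31] and -0.32 [-0.34, -0.30]. Mt-Nd6 gave -0.51 [-0.55, -0.46] and -1.02 [-1.07, -0.98]. The second value was -0.92 with library totals and -0.87 with TMM over all genes listed, both short of 2-fold, and -0.45 with a trend on exon length removed, as described below. Mt-Nd3 gave -1.16 [-1.29, -1.03] and -0.76 [-0.92, -0.61]. With that trend removed they were -0.86 and -0.11, both short of 2-fold. Adding the counts of its nuclear copy made the first value -1.10 [-1.22, -0.99], still past the size rule, and the second -0.80. Mt-Nd4l gave -1.39 [-1.70, -1.09] in the first contrast and 0.08 [-0.30, 0.47] in the second, or -1.09 and 0.74 with the length trend removed. With the copy's counts added these became -0.81 [-0.99, -0.64] and -0.44 [-0.63, -0.25], so that mt-Nd4l no longer passed the size rule and both contrasts were below 0.

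The mt-Nd genes were also a smaller share of the mitochondrial protein-coding counts in the metformin-treated libraries. That share was 31.6, 32.7, 29.0, 31.6, 27.6 and 36.6% in the 6 libraries. Mt-Nd1 made up most of the difference, with 15.4% in the vehicle library against 13.0% with metformin, and 14.2% with rapamycin against 12.0% with both drugs. Mt-Nd5 went the other way, from 5.88% to 6.20% and from 5.36% to 6.07%, and mt-Nd4l, with far fewer counts, went from 0.0183% to 0.0274% in the second contrast. The other 6 mitochondrial protein-coding genes had medians of -0.27 and -0.57 in the metformin contrasts, and mt-Co1, the catalytic subunit of complex IV, was at 9236, 6858, 5432, 6657, 5183 and 8181 TMM CPM. Some of these genes have nuclear copies too: 100% of the windows of mt-Co2 and 51.1% of those of mt-Co1 occur in another gene. For mt-Cytb and mt-Atp8 it was 0%.

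**Figure D3:**
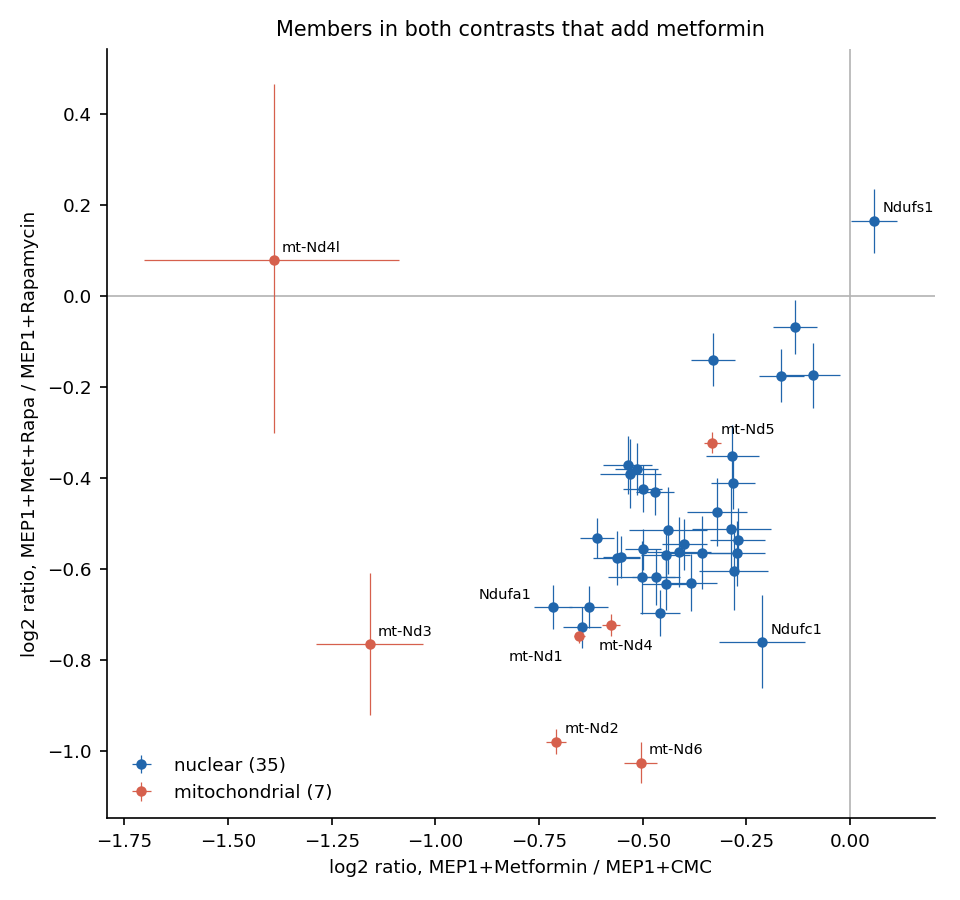
Log2 ratios with 95% counting intervals in both contrasts that add metformin, for 35 nuclear (blue) and 7 mitochondrial (red) members. Ndufs1 lies above 0 on both axes, mt-Nd4l lies above 0 on the vertical axis, and the other 40 drawn lie below 0 on both.

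In the NADH module, which binds and oxidises NADH, the 10 members had medians of -0.39 and -0.48 in the metformin contrasts, and 9 were below 0 in each. Ndufv1, the subunit that binds NADH and the flavin, was at 110, 113, 103, 112, 107 and 202 TMM CPM. On the TMM scale its 5 transferred libraries lay close together and the naive control far above them. Its metformin ratios were -0.13 [-0.19, -0.08] and -0.07 [-0.13, -0.01]. The second ratio turned above 0 with library totals, with TMM over all genes listed, with no filter and with the length trend removed. Ndufv2, an iron-sulphur partner of Ndufv1, was at 153, 121, 99.8, 135, 102 and 172 TMM CPM. Its ratios were -0.28 [-0.33, -0.23] and -0.41 [-0.47, -0.35]. Ndufs1, the large iron-sulphur subunit of the module, was at 98.0, 93.7, 97.5, 74.2, 83.3 and 93.3 TMM CPM. Its lowest library was MEP1+Rapamycin, and it was the only member above 0 in both contrasts, with 0.06 [0.00, 0.11] and 0.17 [0.10, 0.24]. Of the 44 members it has the longest summed exon length, 8086 bases, and with the length trend removed its first ratio was -0.08. Ndufa2, a small thioredoxin-fold subunit, was at 226, 179, 116, 224, 139 and 280 TMM CPM, low in both metformin-treated libraries.

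In the quinone module, where electrons reach ubiquinone, 6 of 6 members were below 0 in the first contrast, with medians in the first and second of -0.31 and -0.28. Ndufs7, which carries the last iron-sulphur cluster before ubiquinone, was at 211, 223, 146, 232, 161 and 327 TMM CPM. Its ratios were -0.61 [-0.65, -0.57] and -0.53 [-0.57, -0.49]. Ndufs8, which carries iron-sulphur clusters on the way to Ndufs7, was at 163, 134, 94.0, 128, 98.5 and 203 TMM CPM. Its ratios were -0.51 [-0.57, -0.46] and -0.38 [-0.44, -0.32], the second of which was 0.04 with the length trend removed. Ndufs3, a core subunit without a cofactor, was at 83.3, 70.2, 65.9, 79.4, 70.4 and 83.8 TMM CPM, with ratios of -0.09 [-0.16, -0.02], which turned above 0 with library totals or the length trend removed, and -0.17 [-0.24, -0.10]. The 7 nuclear core subunits as a group had medians of -0.20 and -0.17, closer to 0 than the medians of all 36 nuclear members.

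In the membrane arm every nuclear member past the filter was below 0 in both contrasts, 9 of the proximal part and 10 of the distal part. With the length trend described below removed, some did not stay below 0 in the second: Ndufb3 stood at 0.0047 and Ndufb9 at 0.098. The proximal medians were -0.44 and -0.57, and the distal ones -0.44 and -0.55. Ndufa1, a small X-linked subunit needed to build the membrane arm, was at 229, 186, 113, 196, 122 and 193 TMM CPM. It had the lowest nuclear ratio of the first contrast, -0.72 [-0.76, -0.67], and stood at -0.68 in the second. It has the shortest exon sum of the nuclear members, 419 bases, and with the length trend removed these ratios were -0.42 and -0.06. Ndufa3, a small accessory subunit of the proximal part, was at 230, 187, 119, 227, 137 and 314 TMM CPM, with -0.65 [-0.69, -0.60] and -0.73 [-0.77, -0.68]. Ndufc1 was at 38.5, 30.3, 26.2, 46.2, 27.3 and 51.2 TMM CPM. It was the lowest nuclear member of the second contrast, at -0.76 [-0.86, -0.66], with -0.21 in the first. Ndufa10, an accessory subunit related to nucleoside kinases, was at 114, 121, 95.9, 116, 105 and 164 TMM CPM, a narrow range among the 5 transferred libraries.

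Exon length moved with these ratios. The nuclear members were short, with a median summed exon length of 1334 bases against 3690 over all genes tested, and 23 of 36 fell in the shortest of 5 equal length classes. All genes of that class had a median of -0.23 in the first metformin contrast and -0.41 in the second, while the longest class had 0.17 and 0.08. In the shortest class the 23 nuclear members had medians of -0.46 and -0.56, and 22 and 19 of them lay below the class's own median. With a smooth trend on length removed, the nuclear median relative to all genes moved from -0.42 to -0.23 and from -0.51 to -0.17, and the mitochondrial one from -0.64 to -0.41 and from -0.72 to -0.34. With the trend removed, 1 member passed the size rule in the first contrast and 0 in the second. Over all genes 445 then passed higher and 318 lower in the first, and 350 higher and 461 lower in the second. Of the 43 members, 2 and 6 had the other sign with the trend removed. The 2 were Ndufs1 and Ndufs3, and the 6, all nuclear, included Ndufv1, Ndufs8, Ndufb3 and Ndufb9. With no filter on low counts and the trend left in, the nuclear and mitochondrial medians relative to all genes were -0.24 and -0.44 in the second contrast. What set the length trend was not tested.

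**Figure D4:**
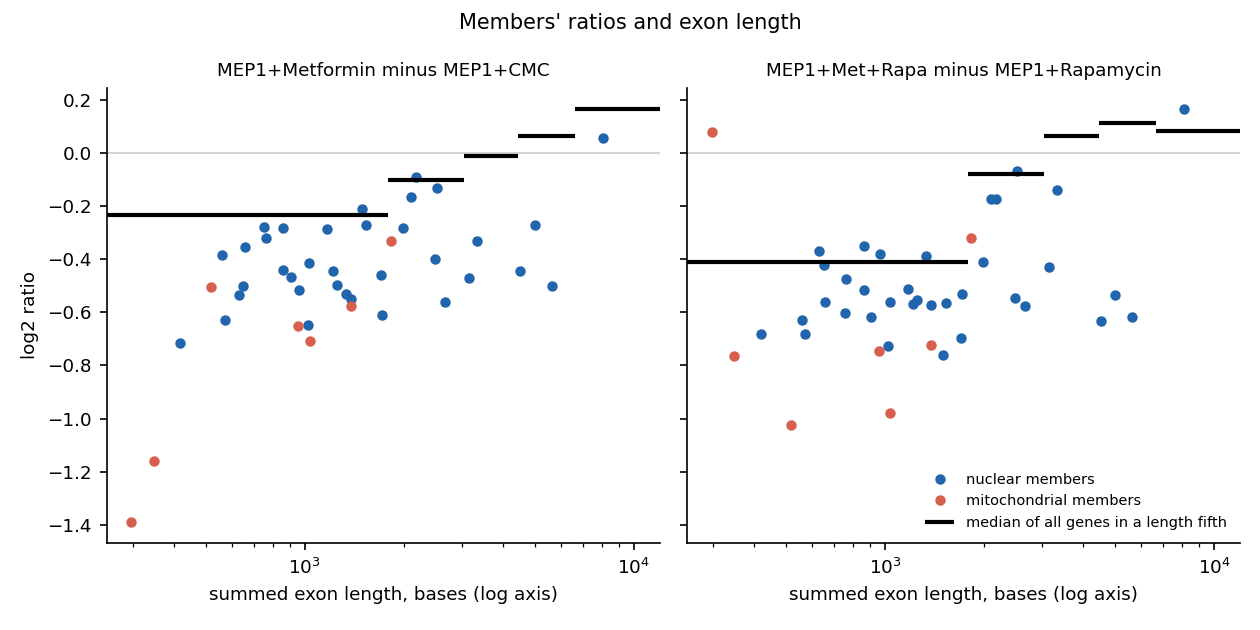
Log2 ratio of 42 members against their summed exon length (log axis) in both contrasts that add metformin; black bars are the medians of all genes in 5 equal length classes. The bar of the shortest class lies at -0.23 and -0.41, and 22 and 19 of the 23 nuclear members in that class lie below it.

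An additive model with a metformin and a rapamycin term was fitted across the 4 MEP1-treated libraries with edgeR's quasi-likelihood test, with 1 residual degree of freedom. That degree of freedom is the departure from additivity and not a spread among replicates. For the metformin term 0 of 43 members had an adjusted p under 0.05 (Benjamini-Hochberg over 12928 genes), against 0.124% of all genes. At an unadjusted p under 0.05, 29 of 36 nuclear and 5 of 7 mitochondrial members were lower and 0 higher, beside 835 genes lower and 573 higher in all. The lowest adjusted p from edgeR were those of mt-Nd2 (log2 change -0.84 ± 0.17 SE, adjusted p = 0.14) and Ndufa1 (-0.70 ± 0.15 SE, adjusted p = 0.16). DESeq2's Wald test of the same design called 24 genes in all (0.186%), and 7 of them were members that fell: mt-Nd1, mt-Nd2, mt-Nd4, mt-Nd6, Ndufa1, Ndufa2 and Ndufa3. Neither model had a term for exon length, so the length trend given above is left in these counts and calls.

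Rapamycin alone gave another picture. In MEP1+Rapamycin against MEP1+CMC, 29 of 36 nuclear members lay above 0 and 7 below, where 47.3% of all genes were below, with a median of 0.22 beside 0.03 over all genes. The mitochondrial members had 5 of 7 below 0 and a median of -0.12. Length moved with this too. All genes of the shortest length class had a median of 0.26, and with the length trend removed the nuclear median relative to all genes went from 0.18 to 0.014. With the trend removed 13 of 43 members had the other sign, so the direction of many members depends on it. The relative median was -0.079 with no filter, and with TMM over all genes listed 6 of 43 members had the other sign. The mitochondrial relative median of -0.15 ranged from -0.41 with no filter to -0.053 with a mean CPM of at least 10. The highest nuclear ratios were those of Ndufc1, 0.61 [0.51, 0.71], and of Ndufa6, 0.40 [0.35, 0.46]. Ndufs1, a core subunit of the matrix arm, was among the lowest with -0.34 [-0.40, -0.27]. Mt-Nd4l was the 1 member past the size rule, against 11.9% of all genes, at -1.19 [-1.54, -0.86], and stood at -0.21 with the counts of its nuclear copy added. Mt-Nd4 and mt-Nd6 lay above 0 with 0.17 and 0.25, of which mt-Nd6 stood at -0.22 with the trend removed, and mt-Nd3 below with -0.57 [-0.70, -0.44].

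Rapamycin on top of metformin moved members little. In MEP1+Metformin+Rapamycin against MEP1+Metformin, 3 of 36 nuclear and 5 of 7 mitochondrial members were below 0, against 48.6% of all genes, with medians of 0.12 and -0.17. With the length trend removed the medians relative to all genes moved from 0.11 to 0.050 and from -0.18 to -0.31, and 9 of 43 members had the other sign. None of the 43 passed the size rule, which 3.12% of all genes passed. Ndufa2 at 0.27 [0.22, 0.32] and Ndufb2 at 0.25 [0.17, 0.34] were the highest nuclear members. Ndufs1 at -0.23 [-0.29, -0.17] was the lowest. Mt-Nd2 was at -0.32 [-0.35, -0.29] and mt-Nd1 at -0.21 [-0.22, -0.19]. In the additive model no member was called for the rapamycin term by edgeR, where 0.232% of all genes were. At an unadjusted p under 0.05 by edgeR there were 0 of 43 members, beside 960 of all 12928 genes. DESeq2's Wald test also called 0 members, against 0.588% of all genes.

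Both drugs together were set against the vehicle in MEP1+Metformin+Rapamycin against MEP1+CMC, which shares libraries with the contrasts above. There 35 of 36 nuclear and 7 of 7 mitochondrial members were below 0, against 50.3% of all genes, with medians of -0.27 and -0.86. Mt-Nd2 at -1.03 [-1.05, -1.00], mt-Nd3 at -1.33 [-1.46, -1.20] and mt-Nd4l at -1.11 [-1.39, -0.84] passed the size rule, which 6.86% of all genes passed. Mt-Nd2 and mt-Nd4l did not pass with library totals, and mt-Nd2 did not with the length trend removed. With the counts of its nuclear copy added, mt-Nd4l stood at -0.65 and did not pass. Mt-Nd1 was at -0.86 [-0.88, -0.85] and mt-Nd6 at -0.78 [-0.82, -0.73]. The lowest nuclear members were Ndufa1 at -0.60 and Ndufs7 at -0.47, and the highest were Ndufs3 at 0.0041 [-0.06, 0.07] and Ndufa9, a quinone-module subunit related to short-chain dehydrogenases, at -0.06 [-0.11, -0.01]. Mitochondrial members were thus further below 0 than nuclear ones in this comparison, and the difference between the genomes was not tested.

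The MEP1+CMC mice received both MEP1 and the vehicle on days 28 and 35, which the No treatment mice did not, so the peptide and the vehicle cannot be told apart in this comparison. In MEP1+CMC against No treatment, 33 of 36 nuclear and 7 of 7 mitochondrial members were below 0, against 49.4% of all genes, with medians of -0.28 and -0.35. The size rule was passed by 0 members and by 12.2% of all genes. Ndufc2 and Ndufb2, accessory subunits of the membrane arm, were lowest at -0.41 [-0.48, -0.34] and -0.40 [-0.47, -0.34]. Ndufa10 and Ndufs7 were highest, both at 0.08. Macrophage, erythroid and Xist levels also differ between these 2 libraries, as given above, and their part in this result was not tested. With the length trend removed the nuclear median relative to all genes moved from -0.29 to -0.12 and the mitochondrial one from -0.36 to -0.20. A model of the 4 MEP1-treated libraries against No treatment called 0 members by edgeR, against 1.35% of all genes, and DESeq2's Wald test called 0, against 1163 genes in all. Mt-Nd3 was the lowest of the 43 members in this model, with a log2 change of -1.31 ± 0.43 SE. Without the MEP1+CMC library mt-Nd3 was the 1 of 43 members called, where 2.66% of all genes were.

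MEP1+Metformin was also set against No treatment, a comparison without the MEP1+CMC library that differs in 2 steps. All 36 nuclear and 7 mitochondrial members were below 0, against 49.6% of all genes, with medians of -0.68 and -1.00. In it 5 members passed the size rule, against 14.7% of all genes. These were mt-Nd1 at -1.00, mt-Nd2 at -1.09, mt-Nd3 at -1.80, mt-Nd4l at -1.41 and Ndufa1 at -1.02. Of these only mt-Nd3 and mt-Nd4l passed with library totals, and only mt-Nd3 with the length trend removed, when Ndufa1 stood at -0.41 and Ndufb2 also passed. Ndufa2 was next at -0.97 [-1.01, -0.92], while Ndufs1 at -0.01 [-0.06, 0.05] and Ndufv1 at -0.10 [-0.15, -0.04] were closest to 0. Length removed, the nuclear median relative to all genes went from -0.68 to -0.28 and the mitochondrial one from -1.01 to -0.60. All genes of the longest class had a median of 0.35 here.

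Against the naive control, No treatment had 32 of 36 nuclear and 5 of 7 mitochondrial members below 0, where 48.2% of all genes were, with medians of -0.31 and -0.28. With library totals 25 of the 43 members had the other sign, and 10 with the length trend removed, so these directions depend on the scaling. Relative to all genes the nuclear median of -0.34 was -0.19 with the length trend removed and -0.0053 with no filter, and the mitochondrial one of -0.30 was 0.023 and 0.033. The size rule was passed by 0 members and by 24.0% of all genes. Ndufb11, an X-linked membrane-arm subunit, was lowest at -0.97 [-1.03, -0.92], and Ndufa6, a small subunit that holds the acyl carrier protein on the enzyme, stood at -0.97 [-1.03, -0.91]. Ndufa1 at 0.25 [0.19, 0.30] and Ndufs5 at 0.19 [0.08, 0.31] were highest. Mt-Nd5 and mt-Nd6 lay above 0, at 0.09 and 0.15.

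The 5 transferred libraries were tested against the naive control with edgeR's quasi-likelihood test, which had 4 residual degrees of freedom. It called 4 members, all of which fell, against 10.4% of all genes. Ndufv1 had a log2 change of -0.89 ± 0.15 SE (edgeR adjusted p = 0.012). Ndufb11 was at 125, 103, 74.5, 120, 78.1 and 245 TMM CPM, a change of -1.29 ± 0.27 SE (edgeR adjusted p = 0.024). Ndufa6 was at 108, 89.1, 68.4, 118, 76.3 and 212 TMM CPM, a change of -1.20 ± 0.27 SE (edgeR adjusted p = 0.028). Ndufb4, an accessory subunit of the distal membrane arm, was at 47.3, 36.8, 30.2, 48.3, 33.9 and 87.2 TMM CPM, a change of -1.15 ± 0.26 SE (edgeR adjusted p = 0.028). Some 50-base windows of Ndufb4 (18.3%) and Ndufb11 (17.5%) also occur in other annotated genes, such as Ndufb4c and Gm6444, so that their counts could be split. In all 4 the naive control was the highest library. This was not particular to them: it was highest for 30 of 36 nuclear and 5 of 7 mitochondrial members on the TMM scale. The call count was 0 with library totals, where 20.2% of all genes were called. It was 12 of 43 with DESeq2's Wald test, which called 29.2% of all genes, and 13 of 43 without the No treatment library, where edgeR called 22.0%. It was 2 (Ndufb11 and Ndufv1) without MEP1+CMC or without MEP1+Metformin+Rapamycin, where edgeR called 5.96% and 4.97% of all genes. Since the naive control is a single library, its condition and the library itself cannot be told apart.

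Other genes of oxidative phosphorylation were measured the same way in the metformin contrasts. Nuclear subunits of complex III (9 of 9 below 0 in both) had medians of -0.36 and -0.62. Those of complex IV (10 of 10 below 0 in both) had -0.43 and -0.59. Complex V, the ATP synthase, had 16 of 16 and 14 of 16 below 0 with medians of -0.33 and -0.46. Complex II, which feeds ubiquinone from succinate and has no mitochondrially encoded part, had 4 of 4 and 3 of 4 below 0 with medians of -0.13 and -0.18. The 17 assembly factors of complex I had 10 and 11 below 0 and medians of -0.03 and -0.15. Genes of mitochondrial transcription and RNA handling had medians of 0.02 and 0.10, and other routes of electrons to ubiquinone -0.08 and -0.03, over 25 and 8 genes. Regulators of mitochondrial biogenesis had medians of 0.09 and 0.30 over 7 genes. No gene of these lists passed the size rule in either contrast. Most subunits of each of the 5 complexes were thus below 0 in both contrasts, and no difference between the complexes was tested. These values have the length trend left in, and its part in them was not tested.

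**Figure D5:**
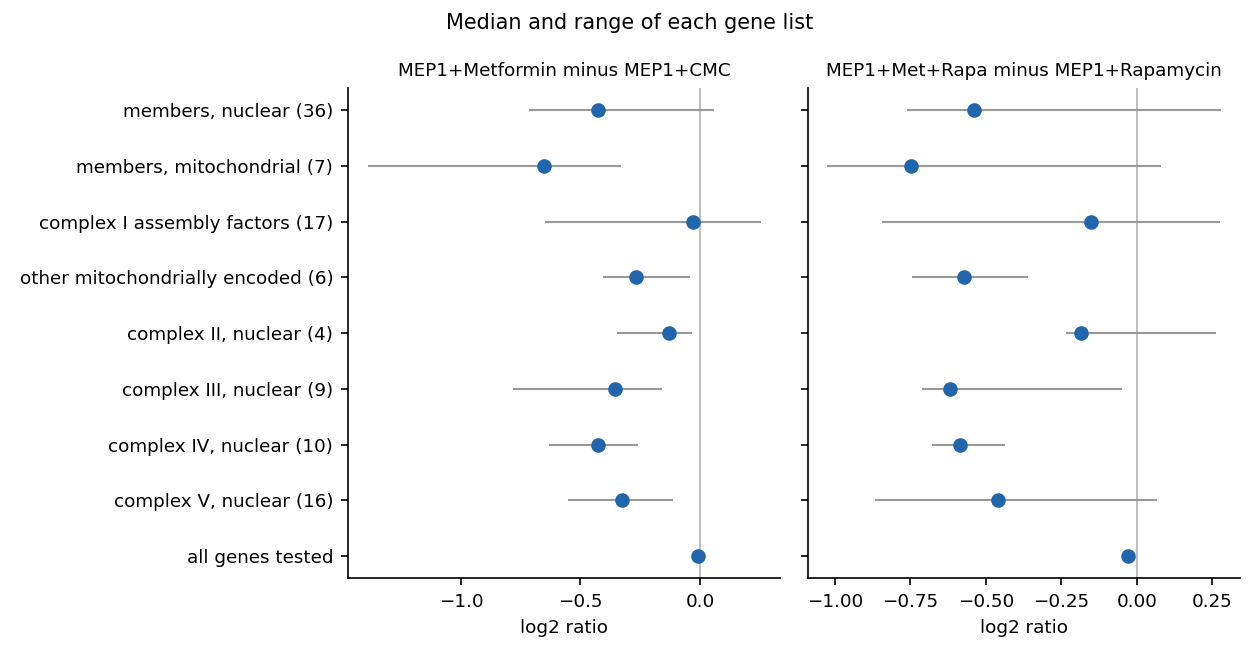
Median (dot) and range from lowest to highest (line) of the log2 ratio for complex I members, assembly factors, the other mitochondrially encoded genes, and the other complexes, in both contrasts that add metformin, with the number of genes tested in brackets; all genes are shown by their median alone. Complexes I, III, IV and V have medians between -0.33 and -0.75, and the assembly factors and complex II lie nearer to 0. The length trend is left in.

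Promoters were read because the nuclear members moved together. RefSeq (GRCm38.p6) start sites gave 300-base promoters, from 250 bases before to 50 after the start, for 32 of the 37 nuclear members. Motifs were searched on both strands for 3 factors known to act on respiratory genes. NRF1 was searched as GCGCANGCG, which 8 of 32 members (25%) held, against 16.2% of the protein-coding genes tested. YY1 was searched as AAGATGGCG, which 5 of 32 (15.6%) held, against 3.91%. The ETS motif that GABP binds was searched as CCGGAAGT, which 1 of 32 (3.12%) held, against 10%. Ndufs6, a zinc-binding subunit of the NADH module, is shown as the 1 member with both NRF1 and YY1 motifs, and Ndufb4 as the one with 3 NRF1 matches. Matches are in capitals, 5′ to 3′ on the gene's strand (chr13:73328433-73328732 and chr16:37654319-37654618, both minus).
Ndufs6: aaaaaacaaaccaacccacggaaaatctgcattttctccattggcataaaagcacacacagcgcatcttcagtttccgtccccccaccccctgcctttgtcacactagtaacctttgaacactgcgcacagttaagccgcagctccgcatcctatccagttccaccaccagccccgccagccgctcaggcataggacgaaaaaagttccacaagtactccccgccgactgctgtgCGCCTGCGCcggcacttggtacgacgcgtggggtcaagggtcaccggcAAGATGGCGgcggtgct
Ndufb4: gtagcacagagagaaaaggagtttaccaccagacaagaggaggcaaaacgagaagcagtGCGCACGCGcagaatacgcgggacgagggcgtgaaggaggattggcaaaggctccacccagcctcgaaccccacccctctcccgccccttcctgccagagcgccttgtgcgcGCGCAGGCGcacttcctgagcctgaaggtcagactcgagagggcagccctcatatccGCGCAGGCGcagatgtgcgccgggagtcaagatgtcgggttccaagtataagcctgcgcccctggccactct
In the metformin contrasts Ndufs6 stood at -0.54 and -0.37, and Ndufb4 at -0.29 and -0.51. Both fall in the shortest length class, where all genes had medians of -0.23 and -0.41. A match describes letters only, and whether these factors act on the members in these cells was not tested.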

How the data were processed

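The deposited values are raw read counts per gene that the authors made with featureCounts (Subread 1.5.2) after Trimmomatic 0.36 and STAR 2.5.2b on GRCm38, per the submitters' processing notes; annotation release, strand and multi-mapping settings are not given in the sources used here. Symbols came from GENCODE M21, which matched 49056 of 49315 genes and left 259 without a symbol. Exon lengths were those deposited with the counts. Genes with at least 2 CPM and 10 counts in a library (12928) were scaled by TMM (edgeR 4.0.16). Ratios of 2 libraries carry exact 95% Clopper-Pearson intervals, and a count of 0 was set to a floor of 3 counts. Ratios for 8 pairs and 4 models were computed, with edgeR's quasi-likelihood test (R 4.3.3) and Benjamini-Hochberg adjustment; DESeq2 1.42.0 was an alternative. The models need other conditions as replicates. Against naive and against No treatment, the residual spread also holds treatment differences among the libraries grouped together. For the metformin and rapamycin terms, fitted on the 4 MEP1-treated libraries, it is the departure from additivity. A p-value or SE here reflects such spread, which may also be technical, and not a spread among replicates. The quasi-likelihood test also draws each gene's spread towards that of all genes. These p-values and SEs therefore do not rest on the gene's own values alone. The test and intervals were tested on simulated data. For the test these held larger changes than the members showed in the models, a common dispersion and no length trend. They do not show how well it finds changes of the members' size.

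Members and gene lists were chosen with earlier results of these data known. Named are all members past the size rule or called, the 7 mt-Nd genes, the 7 nuclear core subunits, and in each comparison the 2 highest and 2 lowest nuclear members (1 nuclear member's own values are not reported here or drawn, but it stays in the counts and medians); Ndufs6 and Ndufb4 are also named for their promoters, chosen after their motifs were seen. The length trend was fitted with lowess (fraction 0.3, statsmodels 0.14.6) on log2 exon length.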

Additional observations from a re-analysis of the deposited data

Results flagged for a closer look

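Some members had opposite signs under rapamycin with and without metformin, each sign beyond its counting interval; with 1 library per condition these differences were not tested. Mt-Nd6 was at 0.25 without metformin and -0.27 with it. Ndufs8 was at -0.068 and 0.067, and Ndufa10 at -0.062 and 0.13, in the same order. With the length trend removed the signs were no longer opposite for mt-Nd6, at -0.22 and -0.43, and Ndufs8, at -0.36 and -0.04. The 2 rapamycin contrasts use all 4 MEP1-treated libraries, so a single low or high library can give this pattern.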

How the results depend on the processing

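Of 177 recomputed values, 104 stayed close to those reported and 73 moved. "Relative median" is the members' median log2 ratio less that of all genes. Comparisons run in the order No treatment against naive, MEP1+CMC against No treatment, MEP1+Metformin, MEP1+Rapamycin and MEP1+Metformin+Rapamycin (both drugs) against MEP1+CMC, both drugs against MEP1+Rapamycin and against MEP1+Metformin, and MEP1+Metformin against No treatment. With the length trend removed, the nuclear relative medians were -0.19, -0.12, -0.23, 0.014, -0.19, -0.17, 0.050 and -0.28, and the mitochondrial ones 0.023, -0.20, -0.41, -0.30, -0.73, -0.34, -0.31 and -0.60. The size rule was then passed by 1 (MEP1+Metformin against MEP1+CMC), 2 (MEP1+Rapamycin), 0 (both drugs against MEP1+Rapamycin) and 2 (MEP1+Metformin against No treatment). Of the 12928 genes past the filter, 445, 801, 350 and 1291 passed higher in those comparisons, and 318, 620, 461 and 466 lower. With no filter, nuclear relative medians moved to -0.0053 (No treatment against naive), -0.49 (MEP1+Metformin against MEP1+CMC), -0.079 (MEP1+Rapamycin), -0.24 (both drugs against MEP1+Rapamycin) and -0.86 (MEP1+Metformin against No treatment). Mitochondrial ones moved to 0.033, -0.71, -0.41, -0.44 and -1.20 in those comparisons, -0.89 for both drugs against MEP1+CMC and -0.13 against MEP1+Metformin. Counts past the size rule became 1 against naive, 2 for MEP1+Rapamycin and 8 for MEP1+Metformin against No treatment. Of the 38321 genes with a count in some library, 3034, 6114 and 4831 passed higher there, and 1951, 1592 and 1718 lower. The unfiltered list is mostly genes of few counts. With a mean CPM of at least 10, mt-Nd4l is left out. Mitochondrial relative medians became -0.16, -0.33, -0.60, -0.053, -0.81 and -0.79 in the first 6 comparisons and -0.93 in the last. The nuclear one for MEP1+Rapamycin became 0.24. Counts past the size rule became 1 (MEP1+Metformin against MEP1+CMC), 0 (MEP1+Rapamycin), 2 (both drugs against MEP1+Rapamycin) and 2 (MEP1+Metformin against No treatment). Of the 8637 genes at that mean, 42, 132, 54 and 303 passed higher in those comparisons, and 82, 181, 44 and 114 lower.

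The alternatives that leave out mt-Nd3 and mt-Nd4l, add the nuclear copies' counts or use TMM over all genes listed were added after seeing the data. Without mt-Nd3 and mt-Nd4l, mitochondrial relative medians became -0.57, -0.081 and -0.77 for the 3 comparisons with MEP1+CMC, -0.22 for both drugs against MEP1+Metformin and -0.94 for MEP1+Metformin against No treatment. Counts became 0, 0, 1 and 3. With the nuclear copies' counts added, the values for both drugs were -0.77 (against MEP1+CMC) and -0.14 (against MEP1+Metformin), and counts were 1 for MEP1+Metformin and 0 for MEP1+Rapamycin. With library totals 1 (both drugs against MEP1+CMC), 0 (against MEP1+Rapamycin) and 2 (MEP1+Metformin against No treatment) passed. Over all genes 533, 390 and 1711 then passed higher, and 403, 472 and 442 lower. With TMM over all genes listed, the last 2 member counts were 0 and 8. Over all genes 425 and 1224 passed higher there, and 425 and 642 lower. With DESeq2 size factors 2 members passed against naive, where 1985 of all genes passed higher and 1149 lower. Library totals moved the median of all genes from 0.03 to 0.51 in that comparison, and TMM over all genes moved it from 0.03 to -0.13 for MEP1+Rapamycin. Where a cause is not stated, the cause was not tested.

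In the models, members called against naive were 0 with library totals, 12 with DESeq2's Wald test and 2 to 13 with a library left out. For the metformin term the Wald test called 7. For MEP1 against No treatment, 0 to 1 members were called with a library left out. No paired analysis was possible because each condition has 1 library. Depth limits mt-Nd4l and Ndufa4l2 most.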
